A study of Mus musculus with 8 samples.

Results

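TRBV31, the segment also called Vβ14, is the 1 variable segment of the mouse T cell receptor (TCR) β-chain locus that lies behind the D, J and C segments and points the other way. Its clonotypes were chosen by the V name given in the β-chain libraries of endogenous CD8+ T (en-T) cells. They made up 2233 of 60131 β-chain clonotypes (3.71%) and 3416 of 80000 reads (4.27%), and TRBV31 was 1 of 24 TRBV segments named. A clonotype is 1 row of a library, that is a CDR3 nucleotide sequence with its V, D and J names, and the CDR3 is the loop that forms where these segments join. The 2233 rows held 2210 different nucleotide sequences and 2140 amino acid clonotypes, the latter defined by CDR3 protein sequence, V and J.

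All mice were female C57BL/6, 6 to 8 weeks old, and carried B16F10 melanoma. Day 3 after tumor injection brought 300 mg/kg of the lymphodepleting agent cyclophosphamide (CTX), followed by Pmel-1 CD8+ T cells with a transgenic receptor for gp100 on day 5, and 10000 IU interleukin-2 daily for 3 days. The CTXpre group (CTX in the labels, 3 mice) had no further treatment, whereas the CTXpre/CD4post group (CTX_CD4, 5 mice) was also given 200 μg of the anti-CD4 antibody GK1.5 on days 10, 17 and 24. On day 25, Thy1.1-negative CD8+ cells, which leave out the transferred Thy1.1 Pmel-1 cells, were sorted from inguinal lymph nodes and spleen, and each mouse gave 1 β-chain library.

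Each library had been brought to 10000 reads, so depth did not differ between mice, and 5671 to 8529 clonotypes were listed per library. No molecular identifiers are named in the sources used here, so intervals cover counting error only, and 3 reads (0.03% of a library) were taken as the least that can be told from 0. TCR reads hold no Thy1.1 or CD8 transcript, and carry-over of transferred Pmel-1 cells, whose transgenic β chain uses TRBV14 and not TRBV31, was not tested. Replicates 1 and 2 of the CTXpre/CD4post group stood apart from the other 27 pairs of mice in the nucleotide clonotypes they had in common, 10 for TRBV31 against at most 3 in any other pair and 138 for the other segments against at most 51. Results on shared clonotypes are therefore also given with these mice not counted for each other.

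TCR β genes are assembled in the thymus in steps, D to J first and then V to DJ. The RAG recombinase cuts beside signal sequences made of a heptamer, a spacer and a nonamer. Where V and D point the same way, the DNA between them is cut out as a circle, but a V segment that points the other way is joined by turning the stretch between V and DJ around, with nothing lost. Ends can be trimmed before they are sealed, opened hairpins can leave short mirrored (P) bases, and terminal transferase adds bases that no template encodes.

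In the GENCODE vM21 annotation of GRCm38, TRBV31 (ENSMUSG00000076499.3) is on the minus strand at chr6:41557691-41558452. The neighbouring upstream V segments TRBV29 (chr6:41271394-41271881) and TRBV30 (chr6:41281376-41281990) are on the plus strand. Between them and TRBV31 lie, all on the plus strand, TRBD1 (chr6:41533201-41533212), the TRBJ1 cluster, TRBC1, TRBD2 (chr6:41542163-41542176), the TRBJ2 cluster and TRBC2 (chr6:41546730-41548352). TRBD2 lies behind the TRBJ1 cluster, so it can join TRBJ2 but not TRBJ1 by deletion, whereas TRBD1 can join either.

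**Figure D1:**
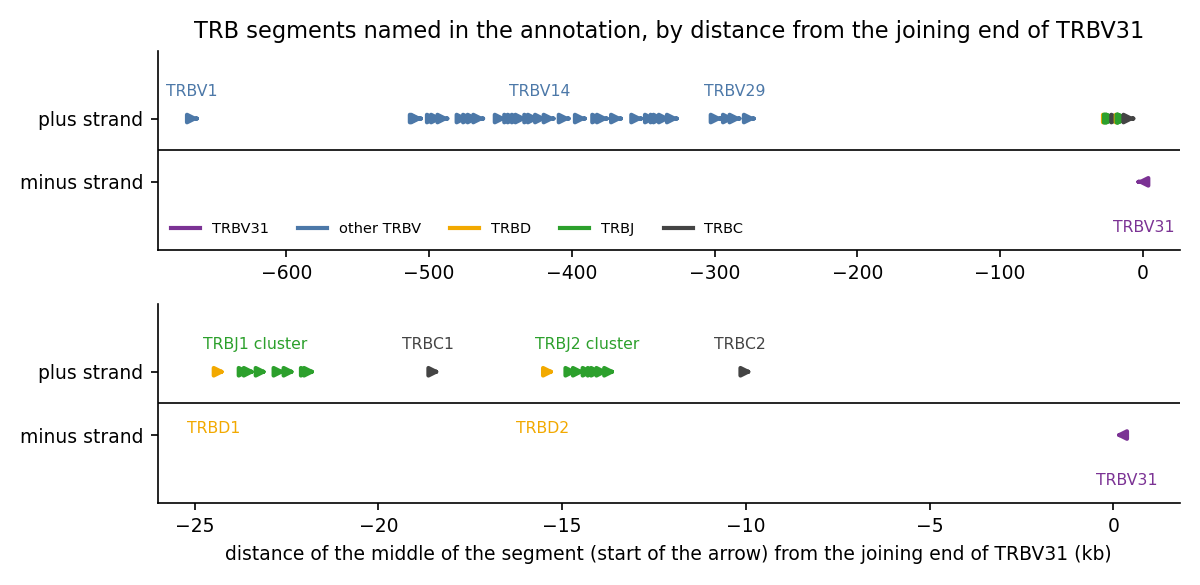
Map of the TRB segments by distance in kb from the joining end of TRBV31 (x axis), with the plus strand above and the minus strand below each line; the upper panel shows the whole locus and the lower panel the D, J and C segments. Arrows start at the middle of a segment and point the way it is read, and TRBV31 is the only arrow on the minus strand, and TRBD2 with the TRBJ2 cluster lies nearer to it than TRBD1 with the TRBJ1 cluster.

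The germline sequences that set what a TRBV31 junction can look like are the end of TRBV31 with its signal (chr6:41557654-41557706, minus strand, heptamer and nonamer in capitals, the 14 bases before the heptamer being those of the CDR3), both D segments, and the TRBJ2-1 and TRBJ2-7 segments that recur in the clonotypes printed further on. They were read from the GRCm38 genome at the annotated positions.
TRBV31 end and signal: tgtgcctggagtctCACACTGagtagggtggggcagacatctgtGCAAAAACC
TRBD1: gggacagggggc
TRBD2: gggactgggggggc
TRBJ2-1: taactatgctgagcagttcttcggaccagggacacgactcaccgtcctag
TRBJ2-7: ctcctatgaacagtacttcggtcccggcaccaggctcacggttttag

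The TRBV31 heptamer CACACTG matched the canonical CACAGTG at 6 of 7 bases and the nonamer GCAAAAACC matched ACAAAAACC at 8 of 9 bases, with a spacer of 23 bases between them. The germline end encodes C, A, W and S, and 95.2% of TRBV31 clonotypes (2126 of 2233) began with CAW, against 3 clonotypes among all other TRBV rows. The V names come from alignment of these same sequences, so this is no independent check of the names. Of the TRBV31 CDR3s, 71.7% began with CAWS, 11.7% with CAWR, 3.58% with CAWT and 2.64% with CAWG. In single mice the share of CAWS lay between 66.3% and 74.9%.

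The share of clonotypes named TRBV31 overlapped between the groups. There were 311, 272 and 293 TRBV31 clonotypes in the CTXpre mice and 260, 350, 255, 273 and 219 in the CTXpre/CD4post mice, in the order of their replicate numbers. These were 3.86%, 3.19% and 3.70% of β-chain clonotypes in the CTXpre mice and 3.68%, 4.21%, 3.35%, 3.91% and 3.86% in the CTXpre/CD4post mice. Means were 3.58% ± 0.35 (SD, n = 3) and 3.80% ± 0.31 (SD, n = 5), and a two-sided Mann–Whitney test gave an exact p of 0.571.

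TRBV31 reads numbered 425, 319 and 379 of 10000 in the CTXpre mice and 432, 502, 357, 495 and 507 in the CTXpre/CD4post mice. Replicate 3 of the CTXpre/CD4post group lay among the CTXpre mice, and the other mice of that group lay above all CTXpre mice. The share of reads was 3.74% ± 0.53 (SD, n = 3) against 4.59% ± 0.64 (SD, n = 5), a ratio of 1.23. In edgeR's quasi-likelihood test over the 23 segments that reached 10 reads in 3 or more mice, the log2 fold change was 0.20 ± 0.13 (SE), with an adjusted p of 0.509. No segment passed an adjusted p of 0.05 (0% of 23) in edgeR or in DESeq2, and 4 segments had an unadjusted p under 0.05, TRBV31 not among them. Wilson 95% intervals of the share of reads ran from 2.86% to 3.55% in the lowest mouse (CTXpre replicate 2) and from 4.66% to 5.52% in the highest (CTXpre/CD4post replicate 5).

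Reads per TRBV31 clonotype were 1.37, 1.17 and 1.29 in the CTXpre mice and 1.66, 1.43, 1.40, 1.81 and 2.32 in the CTXpre/CD4post mice. All values of the second group lay above those of the first, and a two-sided Mann–Whitney test gave an exact p of 0.0357, which is as low as groups of 3 and 5 can reach. An exact permutation test of the means gave p = 0.0714. Neither p was adjusted, and this ratio was not among the 9 measures adjusted together further on. The same ratio did not overlap in 1 of 19 segments (5.26%), TRBV31 itself, among those with at least 30 clonotypes in every mouse. For all other rows together it was 1.22 against 1.41 (exact p = 0.143).

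The segments whose share of reads moved most like that of TRBV31 over the 8 mice were TRBV5, TRBV3 and TRBV14. Their centred log2 shares differed from those of TRBV31 by a root mean square of 0.19, 0.20 and 0.23. Of the neighbours upstream, TRBV29 had rank 7 in that order at 0.26 and TRBV30 rank 13 at 0.30, and these distances are a description without a test.

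**Figure D2:**
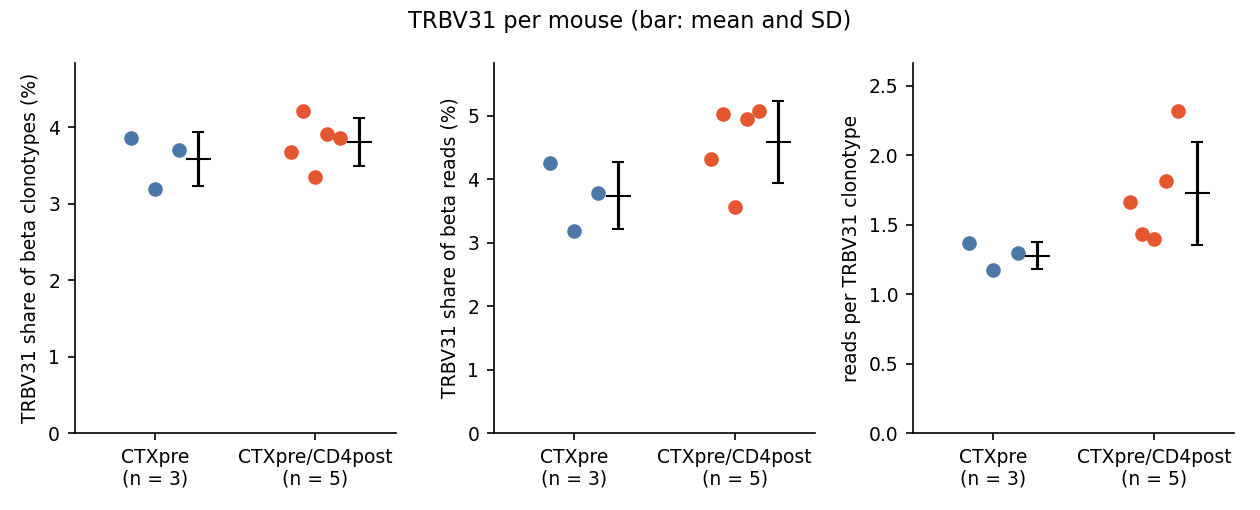
TRBV31 share of β-chain clonotypes (left, %), share of β-chain reads (middle, %) and reads per TRBV31 clonotype (right) in 3 CTXpre and 5 CTXpre/CD4post mice; each point is 1 mouse, and bars give mean and SD. Both shares overlapped between groups, and reads per clonotype reached 1.37 in the CTXpre group and began at 1.40 in the CTXpre/CD4post group.

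The partners of TRBV31 were compared with those of all other β-chain rows within each mouse, using clonotypes as the unit. TRBV31 was joined less often to the TRBJ2 cluster, in 8 of 8 mice. The TRBJ2 share of TRBV31 clonotypes ranged from 57.7% to 69.4% (mean 64.2% ± 3.91, SD, n = 8), and that of the other rows from 68.6% to 72.7% (70.4% ± 1.21). The mean difference was -6.16 percentage points, with an adjusted p of 0.0156 in an exact two-sided sign-flip permutation test, Benjamini-Hochberg over 8 measures. Of 19 segments tested in the same way, 13 (68.4%) differed from all their other rows, and TRBV31 was the fourth lowest. TRBV29 had a TRBJ2 share of 64.2% too, and against TRBV29 and TRBV30 together the difference was -0.919 points (adjusted p = 0.547, exact permutation test).

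Among single J segments the widest gap was at TRBJ2-7, the segment nearest to TRBV31. It was used by 16.5% ± 2.55 (SD, n = 8) of TRBV31 clonotypes against 22.1% ± 0.69 of the others, lower in 8 of 8 mice. In the CTXpre mice the TRBV31 share was 19.0%, 18.4% and 15.7%, and in the CTXpre/CD4post mice 14.6%, 13.1%, 15.7%, 14.7% and 20.5%, against 21.1% to 22.9% for the other rows. No TRBV31 value reached the lowest of the other rows. TRBJ1-2 was higher, 7.53% against 5.22% in 7 of 8 mice, and so was TRBJ1-5, 3.62% against 2.24% in 7 of 8 mice. None of the 12 TRBJ segments passed after adjustment, with adjusted p = 0.0938 for these 3 in the exact sign-flip permutation test and unadjusted p of 0.0078, 0.0234 and 0.0156, where 0.0078 is the smallest that 8 mice can give. Of all 228 pairs of segment and TRBJ tested like this, 46 (20.2%) passed.

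Which D segment was used differed most within the TRBJ2 cluster, where both D segments can be reached by deletion. TRBV31 clonotypes with TRBJ2 and a D used TRBD1 in 32.6%, 29.8% and 35.0% of cases in the CTXpre mice and in 32.6%, 33.0%, 30.4%, 34.1% and 28.7% in the CTXpre/CD4post mice. The other rows lay at 42.7% ± 1.16 (SD, n = 8), with 41.2% as the lowest and 44.9% as the highest mouse. No mouse overlapped, the difference was -10.7 percentage points, and the adjusted p was 0.0125 in the exact permutation test. By this measure 15 of 19 segments (78.9%) differed from their other rows at p under 0.05. TRBV31 had the second lowest value at 32.0%, after TRBV4 at 31.3%, and TRBV29 the highest at 68.3%, with TRBV30 at 38.5%.

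By single J segment, pooled over mice, TRBD1 was less frequent with TRBV31 at each of the 6 TRBJ2 segments. With TRBJ2-7 it made up 26.2% of 286 TRBV31 clonotypes (Wilson 95% interval 21.5% to 31.6%) against 42.1% of 9454 others. With TRBJ2-3 the shares were 26.3% of 194 and 38.8% of 3991. At TRBJ2-4 they were nearly equal, 38.9% (31.3% to 47.0%) and 39.5%. These intervals pool the clonotypes of all mice and leave out the spread between mice, and no test was run by single J segment.

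Counted over all clonotypes with a D, TRBD1 joined to TRBJ2 made up 21.8% ± 1.87 of TRBV31 and 31.5% ± 1.09 of other clonotypes (SD, n = 8; -9.68 points, lower in 8 of 8 mice; adjusted p = 0.0313 over 4 classes, exact permutation test). TRBD1 with TRBJ1 was more frequent, 28.3% against 24.0% in 7 of 8 mice, and TRBD2 with TRBJ2 was too, 46.4% against 42.3% in 7 of 8 mice (both adjusted p = 0.0417, exact permutation test). TRBD2 with TRBJ1, a pair that deletion cannot form, was called in 3.37% ± 2.04 of TRBV31 and 2.26% ± 0.152 of other clonotypes. Among TRBJ1 joins with a D, where alone such a pair can be seen, TRBD2 made up 10.6% ± 5.62 of TRBV31 clonotypes (1.47% to 19.0% per mouse) and 8.65% ± 0.66 of the others (SD, n = 8). The D segments share most of their G-rich sequence, and how many of these D calls are wrong was not tested. Over both J clusters, TRBD1 made up 50.2% against 55.5% (-5.29 points, lower in 7 of 8 mice; adjusted p = 0.0179, exact permutation test), a measure on which 15 of 19 segments (78.9%) differed.

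Clonotypes with no D assigned were fewer with TRBV31, 24.6% ± 1.82 against 27.5% ± 0.40 (SD, n = 8), in 8 of 8 mice. The difference was -2.90 points (adjusted p = 0.0156, exact permutation test), and 13 of 19 segments (68.4%) differed on it. Where a D was assigned, its part was 8.27 bases long on average with TRBV31 and 8.24 with the others.

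No measure of D or J partners passed the test between groups after adjustment. The TRBJ2 share of TRBV31 was 63.0% ± 5.76 (SD, n = 3) in the CTXpre and 64.9% ± 2.89 (SD, n = 5) in the CTXpre/CD4post mice (exact Mann–Whitney p = 0.571). The TRBD1 share of clonotypes with a D was 50.5% ± 4.15 against 50.0% ± 3.55 (exact Mann–Whitney p = 0.786, n = 3 and 5). TRBJ1-6 was the 1 TRBJ whose share did not overlap, with 5.47%, 4.41% and 4.78% of TRBV31 clonotypes in the CTXpre mice and 3.85%, 2.86%, 1.57%, 2.93% and 1.37% in the CTXpre/CD4post mice (exact Mann–Whitney p = 0.0357, adjusted 0.429 over 12). Of 228 such shares over 19 segments, 10 (4.39%) did not overlap. By reads, none of the 12 TRBV31–TRBJ pairs passed in edgeR or DESeq2 (0% of 208 TRBV–TRBJ pairs in either, with 15 at an unadjusted p under 0.05 in edgeR). Of the TRBV31 pairs TRBJ2-3 alone had an unadjusted p under 0.05, with a log2 fold change of 0.66 ± 0.29 (SE) and an adjusted p of 0.623 in edgeR.

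**Figure D3:**
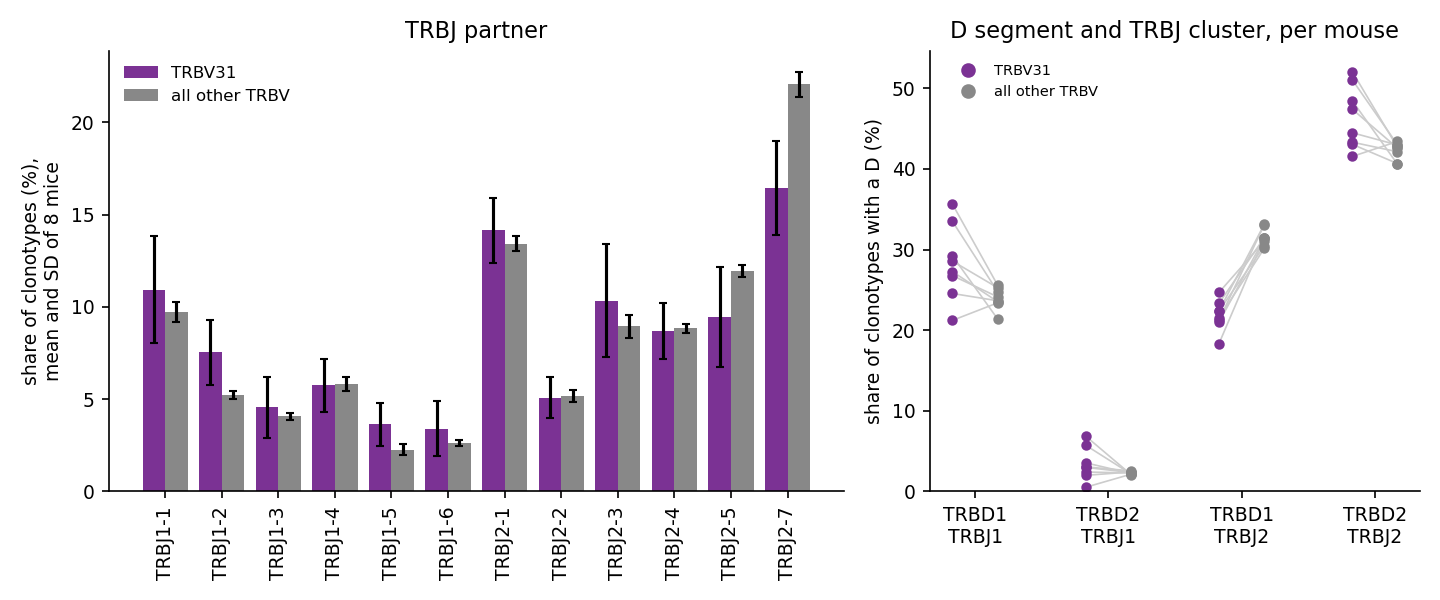
Left, share of clonotypes (%) by TRBJ partner for TRBV31 and for all other TRBV rows, as mean and SD of 8 mice. Right, share of clonotypes with a D (%) by D segment and TRBJ cluster, with 1 point per mouse and lines joining the 2 values of a mouse; TRBD1 with TRBJ2 was lower for TRBV31 in all 8 mice.

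The junction was described by the bases that the files assign to no segment. TRBV31 clonotypes with a D had more of them than the other rows in every mouse. Means were 3.16, 3.21 and 3.16 bases in the CTXpre mice and 3.14, 3.14, 2.93, 3.04 and 2.89 in the CTXpre/CD4post mice, against 2.45 to 2.59 for the other rows. The lowest TRBV31 mouse lay above the highest value of the other rows. The mean difference was 0.571 bases (3.08 ± 0.12 against 2.51 ± 0.044, SD, n = 8; adjusted p = 0.0156, exact permutation test). Of 19 segments 12 (63.2%) differed on this measure, and TRBV31 had the highest mean. With TRBV31, 13.1% of clonotypes with a D had no unassigned base, against 17.0% of the others.

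The difference from the other rows passed the test on the V side alone. Between V and D, the side of the inversion, TRBV31 had 1.74 ± 0.11 unassigned bases against 1.22 ± 0.028 (SD, n = 8), higher in 8 of 8 mice by 0.524 bases (exact permutation p = 0.0078, adjusted 0.0104 over 4 measures), with 13 of 19 segments (68.4%) differing. Between D and J, a joint made before V takes part, it had 1.34 ± 0.12 against 1.30 ± 0.026, higher in 5 of 8 mice (exact permutation p = 0.297). TRBV31 had the highest mean of the 19 segments on both sides, by a small margin between D and J, where TRBV2 followed at 1.34. Between D and J, 0 of 19 segments (0%) differed at p under 0.05.

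The size of the gap depended on where the V part was taken to end. The whole 14-base germline end was present in 779 TRBV31 clonotypes, and in 671 of them (86.1%) the files ended V at base 13, so that the last T, which matches the germline, counted as unassigned. With V taken as the longest exact match to the germline in all segments, TRBV31 had 1.96 ± 0.099 bases between V and D against 1.60 ± 0.038 (SD, n = 8). Both values rose, and that of the other rows rose more. In other clonotypes the files thus ended V beyond the exact match, with a larger net effect in the other rows than in TRBV31. The difference left was 0.361 bases, again higher in 8 of 8 mice (exact permutation p = 0.0078), with 13 of 19 segments (68.4%) differing. TRBV31 was then at rank 17 of 19 from the lowest, TRBV12-2 being the highest at 2.10. Over both sides the difference was then 0.408 bases (3.30 against 2.89), with 9 of 19 segments (47.4%) differing at p under 0.05. This way of ending V was chosen after the data were seen.

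TRBV31 ends lost fewer bases than the mean of the other rows. By the exact match, 1.92 ± 0.17 bases were missing from the germline end on average against 2.79 ± 0.041 in the other rows (SD, n = 8). Between 32.2% and 39.5% of TRBV31 clonotypes per mouse kept the whole end, against 20.4% to 21.4% of the others, and the ranges did not overlap; no test was run. Of the 19 segments 4 lost fewer bases than TRBV31, with TRBV2 lowest at 1.34, and 3 kept whole ends more often, with TRBV2 highest at 57.8%. TRBV4, among the other rows, lost 4.73 bases and kept the whole end in 0% of 2841 clonotypes. No listed β-chain CDR3 held a stop or frame mark, and the whole germline end of TRBV4 reads the stop codon taa in frame. A further 420 TRBV31 clonotypes kept 13 bases and 481 kept 11. Of the 779 with the whole end, 251 (32.2%) went on with AG, the mirror image of its last bases CT, as a P addition would, against 7.57% of the 1454 trimmed clonotypes. In single mice the first share was between 24.7% and 40.2% and the second between 4.17% and 10.0%. Mirrored bases followed whole ends in 0% to 33.0% of clonotypes over 18 segments with at least 30 whole ends, and TRBV31 was the second highest. The 0% was that of TRBV14, whose whole end followed by AG reads the stop codon tag in frame. The G may also be the first base of a D segment, so these shares are not counts of P additions.

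Mean unassigned bases were lower in the CTXpre/CD4post group, 3.03 ± 0.12 (SD, n = 5) against 3.18 ± 0.026 (SD, n = 3), and did not overlap (exact Mann–Whitney p = 0.0357, adjusted 0.107 over 9 measures). In 2 of 19 segments (10.5%) the groups did not overlap on this measure. With V ended by the exact match, the values were 3.28 ± 0.098 (n = 5) and 3.33 ± 0.081 (n = 3), the groups overlapped (exact Mann–Whitney p = 0.786), and 0% of the 19 segments were without overlap.

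**Figure D4:**
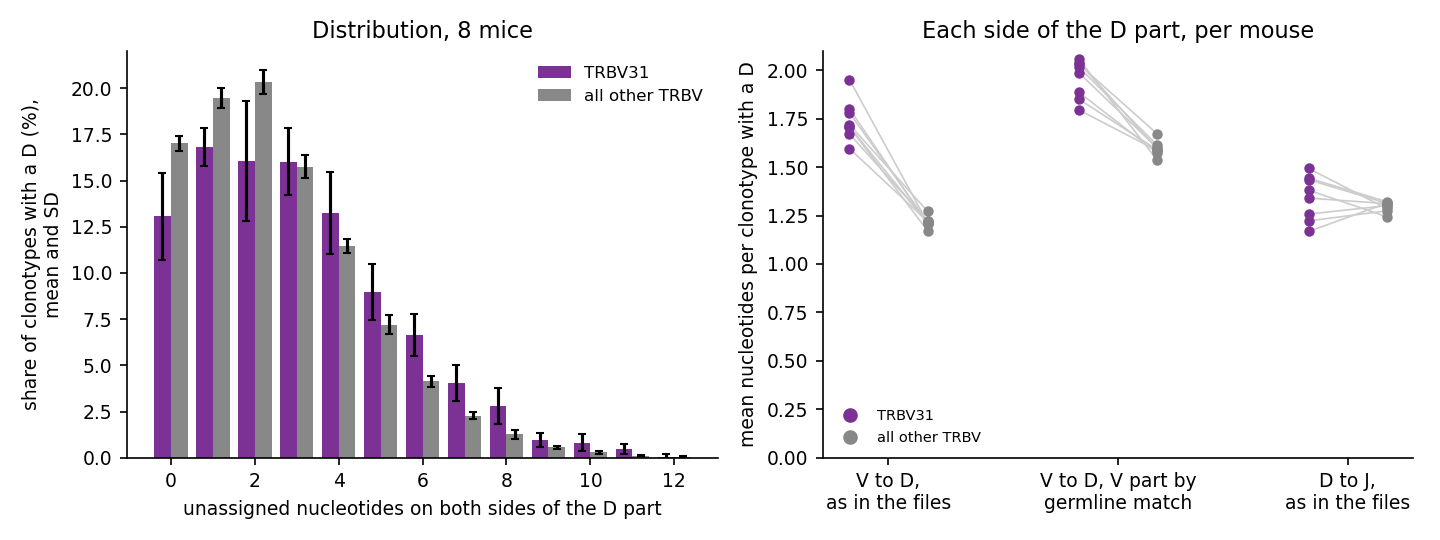
Left, share of clonotypes with a D (%, mean and SD of 8 mice) by the number of unassigned nucleotides for TRBV31 and all other TRBV rows. Right, mean nucleotides between V and D as in the files, between V and D with V ended by germline match, and between D and J, with 1 point per mouse and lines joining the 2 values of a mouse; TRBV31 was higher in 8 of 8 mice in the first and second but not in the last.

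CDR3s of TRBV31 were close to the average in length. They had a mean of 13.77 ± 0.10 residues against 13.88 ± 0.025 (SD, n = 8), a difference of -0.115 residues, shorter in 7 of 8 mice (adjusted p = 0.0179, exact permutation test), and 14 of 19 segments (73.7%) differed in length. Against TRBV29 and TRBV30 alone the sign turned, and TRBV31 was longer by 0.291 residues (adjusted p = 0.0208, exact permutation test). The most frequent length was 14 residues in both, 29.1% of TRBV31 and 29.9% of other clonotypes, and CDR3s of 10 residues made up 2.08% and 1.06%. Lengths in the groups were 13.77 ± 0.15 (n = 3) and 13.77 ± 0.090 (n = 5) residues (SD; exact Mann–Whitney p = 1).

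Expanded clonotypes are those of at least 10 reads. TRBV31, with 3.71% of all clonotypes, named 27 of 262 expanded β-chain clonotypes (10.3%), 2 of 30 in the CTXpre and 25 of 232 (10.8%) in the CTXpre/CD4post mice. The number was 1, 1 and 0 in the CTXpre mice and 3, 3, 3, 4 and 12 in the CTXpre/CD4post mice, so that replicate 5 held 12 of the 25.

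They took 5.88%, 5.02% and 0% of TRBV31 reads in the CTXpre mice and 15.5%, 13.9%, 9.52%, 21.4% and 41.4% in the CTXpre/CD4post mice. In the other rows the shares were 3.31%, 1.56% and 2.42%, and 7.63%, 2.82%, 7.34%, 8.48% and 22.5%. TRBV31 was above the other rows in 7 of 8 mice, the exception being CTXpre replicate 3, whose largest TRBV31 clonotype had 6 reads. The mean difference was 7.08 points (14.1% against 7.01%, n = 8; adjusted p = 0.0234, exact permutation test), a measure on which 5 of 19 segments (26.3%) differed, and TRBV14, the segment of the Pmel-1 receptor, alone had a higher mean, at 14.4%. Without CTXpre/CD4post replicate 5 the difference was 5.39 points, and with clonotypes of 1 read left out it was 10.6 points, with adjusted p = 0.0625 in the exact permutation test.

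Between groups, the expanded share of TRBV31 reads was 3.63% ± 3.18 (SD, n = 3) in the CTXpre and 20.4% ± 12.5 (SD, n = 5) in the CTXpre/CD4post mice. The groups did not overlap (exact Mann–Whitney p = 0.0357, adjusted 0.107 over 9 measures), and of 19 segments tested for it TRBV31 was the only 1 (5.26%) without overlap. In all other rows the difference was 7.33 points (exact Mann–Whitney p = 0.0714) against 16.7 for TRBV31, and the gap between those differences, 9.40 points, had an exact Mann–Whitney p of 0.143. TRBV31 is thus not shown to differ from the rest of the repertoire in this respect.

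Shannon evenness, which is 1 when all clonotypes have equal reads, was 0.961, 0.978 and 0.982 over TRBV31 clonotypes in the CTXpre mice and 0.925, 0.930, 0.954, 0.889 and 0.865 in the CTXpre/CD4post mice. All CTXpre/CD4post mice lay below all CTXpre mice (exact Mann–Whitney p = 0.0357, adjusted 0.107 over 9 measures), which was so in 4 of 19 segments (21.1%). Clonotypes of 1 read were 79.6% of TRBV31 and 83.1% of other clonotypes, lower in 7 of 8 mice (-3.49 points; adjusted p = 0.0179, exact permutation test), where 10 of 19 segments (52.6%) differed. By group that share was 82.6% ± 5.48 (n = 3) and 77.8% ± 6.74 (n = 5) for TRBV31 (SD; exact Mann–Whitney p = 0.393).

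**Figure D5:**
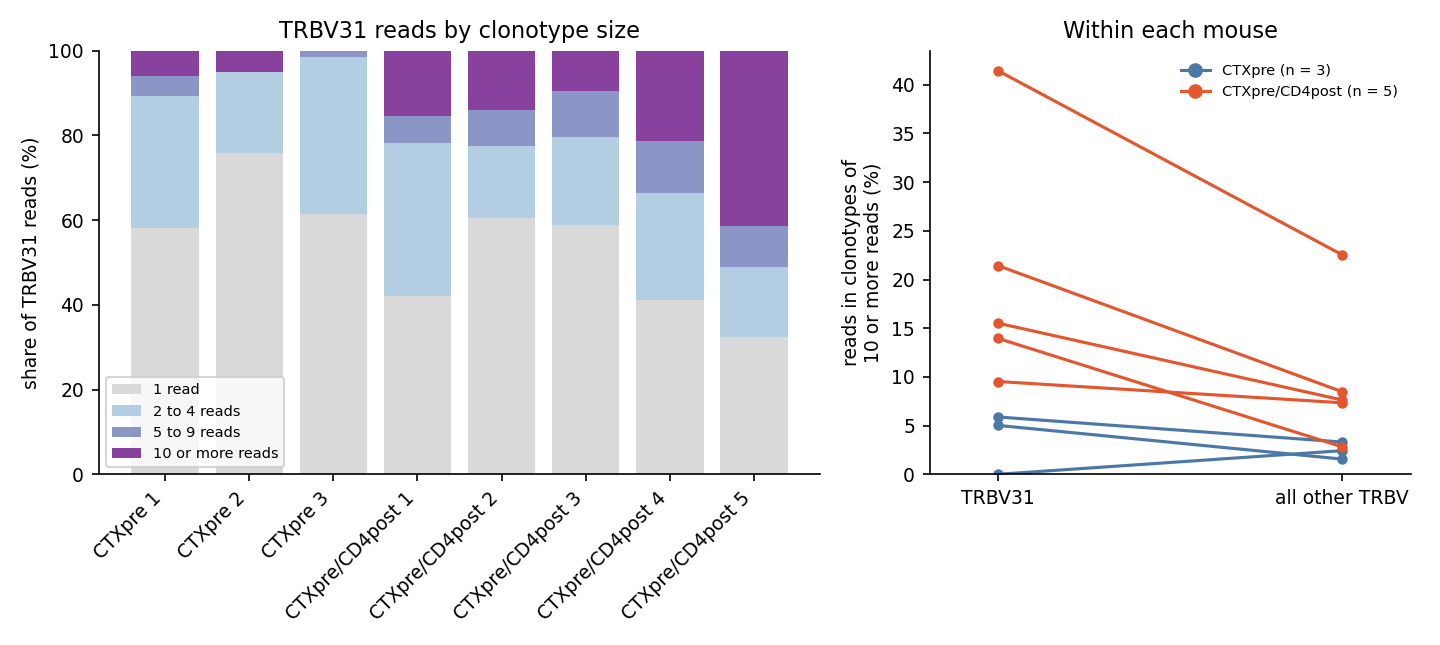
Left, share of TRBV31 reads (%) in clonotypes of 1, 2 to 4, 5 to 9 and 10 or more reads, with 1 bar per mouse. Right, share of reads in clonotypes of 10 or more reads (%) for TRBV31 and for all other TRBV rows, with 1 line per mouse; TRBV31 was higher in 7 of 8 mice and reached 41.4% in CTXpre/CD4post replicate 5.

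The most abundant TRBV31 clonotype of each mouse is printed to show how these junctions are built, with bases that the files assign to no segment in capitals. Lowercase bases are those the files give to V, D or J. Some of them match no germline end, as just before the TRBD1 bases in CTXpre replicate 1, so capitals do not mark every base outside the germline.
CTXpre replicate 1: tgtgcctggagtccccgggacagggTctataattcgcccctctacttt
CTXpre replicate 2: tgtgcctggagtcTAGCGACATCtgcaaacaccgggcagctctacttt
CTXpre replicate 3: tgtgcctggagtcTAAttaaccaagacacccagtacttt
CTXpre/CD4post replicate 1: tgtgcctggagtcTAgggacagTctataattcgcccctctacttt
CTXpre/CD4post replicate 2: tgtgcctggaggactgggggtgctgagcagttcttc
CTXpre/CD4post replicate 3: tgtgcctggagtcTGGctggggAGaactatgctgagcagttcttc
CTXpre/CD4post replicate 4: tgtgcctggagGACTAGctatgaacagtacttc
CTXpre/CD4post replicate 5: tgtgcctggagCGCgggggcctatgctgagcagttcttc

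In the CTXpre mice the leading clonotypes had 25, 16 and 6 reads, and in the CTXpre/CD4post mice 43, 39, 13, 71 and 49. They used 5 different J segments, TRBJ1-6, TRBJ2-1, TRBJ2-2, TRBJ2-5 and TRBJ2-7, and no clonotype led in more than 1 mouse. The largest, that of CTXpre/CD4post replicate 4, held 14.3% of the TRBV31 reads of its mouse and 0.71% of its library (Wilson 95% interval 0.563% to 0.895%). It had 6 unassigned bases and no D assigned. The leading clonotype of replicate 2 of that group had no unassigned base, its V part running into the TRBD2 sequence. That of replicate 1 kept the whole V end followed by A and TRBD1 bases, and its 43 reads were accompanied by 4 reads of the same sequence in replicate 2, the pair with unusual overlap.

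The 27 expanded TRBV31 clonotypes had 13.6 residues and 2.95 unassigned bases (with a D) on average, against 13.8 and 3.09 in the 2206 smaller ones. TRBJ2 was used by 59.3% of the former and 64.3% of the latter, and CAWS began 85.2% and 71.5%. Of the 27, 4 were found in another mouse by amino acid sequence, and 1 with replicates 1 and 2 of the CTXpre/CD4post group not counted for each other. These values pool clonotypes of different mice and were not tested.

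TRBV31 clonotypes were mostly found in 1 mouse. Of the 2140 amino acid clonotypes, 2070 were in 1 mouse, 64 in 2, 5 in 3 and 1 in 4. Of the 2210 nucleotide sequences, 2188 were in 1 mouse, 21 in 2 and 1 in 3. Counts of sharing take a clonotype at any number of reads, also under the floor of 3 reads. Of the 22 nucleotide sequences in more than 1 mouse, 9 were in replicates 1 and 2 of the CTXpre/CD4post group alone, which leaves 13, and of the 70 such amino acid clonotypes 10 were, which leaves 60. The share of clonotypes found in another mouse by amino acid sequence was 4.82%, 5.51% and 7.51% in the CTXpre and 8.46%, 8.86%, 4.31%, 9.52% and 5.48% in the CTXpre/CD4post mice, against 10.2% to 11.8% for the other rows. TRBV31 was below the other rows in 8 of 8 mice (6.81% ± 2.01 against 10.8% ± 0.59, SD, n = 8; adjusted p = 0.0156, exact permutation test), and 17 of 19 segments (89.5%) differed from their other rows on this measure, in either direction. With replicates 1 and 2 of the CTXpre/CD4post group not counted for each other, the difference was -4.24 points (adjusted p = 0.0156, exact permutation test).

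The share does not allow for how many clonotypes of a segment there were to match. Per 1000000 pairs of clonotypes with the same V from different mice, TRBV31 had 46.9 matches and the other rows 48.9. Without the pair of CTXpre/CD4post replicates 1 and 2 these were 43.6 and 47.8. In single pairs of mice the rate ran from 12.6 to 138 for TRBV31 and from 41.1 to 79.4 for the other rows. TRBV31 was the lower in most pairs, and its highest was CTXpre replicate 3 with CTXpre/CD4post replicate 4. These rates were not tested. By group the share was 5.95% ± 1.39 (n = 3) against 7.33% ± 2.29 (n = 5) (SD; exact Mann–Whitney p = 0.571). The difference of 1.38 points became 0.0377 with CTXpre/CD4post replicates 1 and 2 not counted for each other (adjusted p = 0.884, exact Mann–Whitney test), and -0.253 without replicate 2.

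TRBV31 clonotypes found in another mouse had shorter junctions. Pooled over mice, the 154 such clonotypes had 1.93 unassigned bases with a D against 3.18 in the 2079 found in 1 mouse, 60.4% against 33.0% kept the whole V end, and CDR3s had 13.5 against 13.8 residues. TRBJ2 shares were 63.6% and 64.3%. With the pair not counted for each other, 134 clonotypes were in another mouse, with 1.84 against 3.17 unassigned bases, 66.4% against 32.9% whole ends and 13.4 against 13.8 residues. This is a description of pooled clonotypes, and no test was run.

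The amino acid clonotype in 4 mice used TRBJ2-7 and was written by 5 nucleotide sequences with 6 reads in all. Every sequence had 1 read in a mouse that held it, under the 3 reads taken as the least that can be told from 0. Each kept the whole V end and differed in the few bases before the J part, where capitals again mark unassigned bases.
CTXpre replicate 2 and CTXpre/CD4post replicate 2: tgtgcctggagtctgggggaacagtacttc
CTXpre replicate 2: tgtgcctggagtcTCGGtgaacagtacttc
CTXpre replicate 3, with 2 forms: tgtgcctggagtcTAGGGgaacagtacttc
CTXpre replicate 3, the other form: tgtgcctggagtcTAGGtgaacagtacttc
CTXpre/CD4post replicate 4: tgtgcctggagtcTGGGtgaacagtacttc

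The 1 nucleotide sequence found in 3 mice joined TRBV31 to TRBD1 and TRBJ2-1. It had 3, 1 and 8 reads in replicates 1, 2 and 3 of the CTXpre/CD4post group. Replicates 1 and 2 are the pair with unusual overlap, and the 1 read in replicate 2 is under the floor of 3 reads. The whole V end of this sequence is followed by AG and bases of TRBD1.
Nucleotide sequence in 3 mice: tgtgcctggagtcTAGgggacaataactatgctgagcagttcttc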

How the data were processed

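The deposited β-chain files gave read counts per clonotype, segment names and the positions of V, D and J in each CDR3. The deposited fraction is the count over 10000 reads and equalled it in every row. Per the labels and methods, the authors ran a nested PCR on RNA and MiSeq sequencing, trimmed adapters, dropped reads under 36 bp, aligned in MiXCR (version and segment library not given in the sources used here), extracted chains with VDJtools and down-sampled; their processing notes name bcl2fastq and mm10. α-chain files were not used here.

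Unassigned bases are those between V and D plus those between D and J, over clonotypes with a D, and overlapping parts counted as 0. Bases that the files gave to V, D or J were not counted, whether or not they matched the germline. TRBV31 was compared with all other β-chain rows within each mouse by exact two-sided sign-flip permutation (256 sign patterns, smallest p 0.0078), and groups by a two-sided Mann–Whitney test with exact p (56 splits, smallest p 0.0357), with Benjamini-Hochberg adjustment and a threshold of 0.05. Reads per segment and per TRBV–TRBJ pair were tested with edgeR 4.0.16 (TMM, quasi-likelihood, at least 10 reads in at least 3 mice) in R 4.3.3, with DESeq2 1.42.0 as an alternative, over all segments or pairs. Exact tests enumerated all sign patterns or splits in Python 3.11.15, with ranks from scipy 1.17.1 and data handling in pandas 2.3.3, and the tests were tested on simulated data. Germline sequences came from GRCm38 at GENCODE vM21 positions. Named were TRBV31, its TRBJ and TRBD partners, TRBV29 and TRBV30 as neighbours, the 3 segments most alike in share of reads, the leading TRBV31 clonotype of each mouse and clonotypes in at least 4 (amino acids) or 3 (nucleotides) mice; TRBV2, TRBV4, TRBV12-2 and TRBV14 are named as extremes, chosen after their values were seen. Members, lists and tests were chosen with earlier results of these data known. Alternatives covered clonotypes of at least 2 reads, weighting by reads, TRBV29 and TRBV30 as the comparison, other definitions of D, junction, expansion and sharing, and each mouse left out.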

Additional observations from a re-analysis of the deposited data

Results flagged for a closer look

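The share of TRBV31 clonotypes with no D was 23.1%, 27.7%, 22.4%, 23.1% and 23.7% in the CTXpre/CD4post mice, and replicate 2 stood apart. Its gap to the next mouse was 0.740 of the range of the group, above the limit of 0.71 of Dixon's test for 5 values. This was 1 flag in 24 such tests of TRBV31, and chance alone gives about 1 in 20.

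The excess of unassigned bases in TRBV31 over the other rows differed between groups. It was 0.683 bases in the CTXpre and 0.504 in the CTXpre/CD4post mice, a difference of -0.179 (exact two-sided Mann–Whitney p = 0.0357, n = 3 and 5), the only 1 of 8 measures with p under 0.05 and not adjusted for them. With V ended by exact match to the germline, the difference was -0.0698 (exact Mann–Whitney p = 0.786).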

How the results depend on the processing

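Over 21 results, 75 of 93 alternatives and 157 of 168 fits without 1 mouse kept direction and side of the threshold. Many of these are group comparisons that could hardly pass in any setting, so the counts are no measure of robustness. Without 1 mouse, the smallest possible exact Mann–Whitney p is 0.0571 (3 against 4) or 0.0952 (2 against 5). The 13 alternatives that lost the threshold with the same sign were all comparisons of TRBV31 with other rows. In the comparisons of TRBV31 with other rows (exact permutation tests, adjusted p in brackets), clonotypes of at least 2 reads gave -3.78 points for the TRBD1 share (0.143), -0.0870 residues for length (0.227), 10.6 points for reads in expanded clonotypes (0.0625) and -3.43 points for clonotypes in another mouse (0.143). Weighting by reads gave -3.53 (0.104) for TRBD1, -2.47 (0.143) for no D, -0.144 residues (0.148) and -3.18 (0.104) for clonotypes in another mouse. Against TRBV29 and TRBV30 the values were -0.919 for TRBJ2 (0.547), -2.60 for no D (0.0938), +0.291 residues (0.0208, reversed), 7.62 for expanded reads (0.075), -2.90 for clonotypes of 1 read (0.075) and -0.531 for clonotypes in another mouse (0.547). The cause was not tested.

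Between groups, none of the results varied here passed the threshold, and reads per clonotype were not among them. Signs turned for the TRBJ2 share with clonotypes of at least 2 reads (-5.70 points) and for the junction with all bases between V and J (0.0940). They also turned for length with CDR3s from C to F or W only (0.00204 residues) and for the TRBD1 share under the replicate block (0.709 points). Without 1 mouse at a time, the TRBJ2 share ranged from -0.685 to 5.02 points, the TRBD1 share from -2.77 to 1.26 points, length from -0.0883 to 0.0540 residues, and clonotypes in another mouse from -0.253 to 2.33 points.

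Replicate numbers are shared by the groups, but the deviations of same-numbered mice over V segments correlated at 0.172, 0.0271 and 0.227, so the numbers were not taken as pairs. With the replicate block the log2 fold change of TRBV31 reads was 0.13 (edgeR, adjusted p = 0.646), and no TRBV31–TRBJ pair passed. In the paired sign-flip test of 3 pairs the smallest possible exact p is 0.25. Reads of TRBV31 gave log2 fold changes of 0.15 to 0.31 without 1 mouse, and 0.03 in reads without expanded clonotypes (edgeR, adjusted p = 0.908).

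At 219 to 350 TRBV31 clonotypes per mouse, mostly of 1 read, small differences between 3 and 5 mice were not detectable, and 3 against 5 cannot pass an adjustment over 9 measures unless most are at the smallest p.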
